A study of Homo sapiens with 16 samples.

Results

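The glucocorticoid receptor (GR) and the chaperone proteins that hold it ready for hormone were followed at the mRNA level in a pair of multiple myeloma cell lines. The 9 genes were taken by symbol from the read count table of 23354 genes: NR3C1, which encodes GR, and FKBP4, HSP90AA1, HSP90AB1, PTGES3, STIP1, ST13, HSPA8 and CDC37. Each of the 9 was present as 1 row, and each passed the filter on low counts that left 14215 genes for testing. MM1S is a human myeloma line that is sensitive to dexamethasone (Dex), a synthetic glucocorticoid used against myeloma, and MM1R is its glucocorticoid-resistant counterpart. Cells of each line received vehicle (Veh), TAK-981 (TAK) at 0.1 μM, Dex at 1 μM, or both drugs at these doses (combo). TAK-981 inhibits the E1 enzyme that activates SUMO for attachment to other proteins. The labels give 48 h for the 3 drug treatments, and total RNA depleted of ribosomal RNA was sequenced from 2 libraries in each of the 8 groups. With 1 sensitive and 1 resistant line, resistance cannot be told apart from the other ways in which these lines differ. The sources describe the libraries as duplicates and do not say that they came from separate cultures, so the p-values measure the spread between libraries, which may be technical.

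Without hormone, GR resides in the cytoplasm as a client of HSP90. HSP70 proteins such as HSPA8 (HSC70) bind the receptor early, ST13 (HIP) stabilizes HSP70 on its client, and STIP1 (HOP) bridges HSP70 and HSP90 so that the receptor can be passed on. The mature complex holds HSP90, encoded by HSP90AA1 (the more inducible cytosolic form) and HSP90AB1 (the constitutive form), with PTGES3 (p23), which closes HSP90 on the receptor, and an immunophilin. FKBP4 (FKBP52) is the immunophilin that favors hormone binding and movement to the nucleus, whereas FKBP5 (FKBP51) opposes it and is itself a glucocorticoid-induced gene. CDC37 is the HSP90 co-chaperone that mainly loads protein kinases.

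Total counts ran from 15707587 to 24796539 per library, and the 9 genes together took 0.323 to 0.552% of them. Library pairs differed by more than counting noise in each group (chi-square over its degrees of freedom 2.08 for MM1R combo to 21.2 for MM1S TAK), so none was counted as a repeat of the other. All 9 plasma cell markers examined (SDC1, CD38, TNFRSF17, IRF4, PRDM1, XBP1, MZB1, SLAMF7 and JCHAIN) had over 10 counts in every library. The labels call the lines B lymphoblasts, but the mature B cell markers MS4A1, PAX5 and CD22 had at most 11 counts. Markers of T cells, monocytes, fibroblasts and epithelium summed to between 1.11 and 7.60 CPM (counts per 1000000 counts after TMM scaling), with CD3D at 0 counts in every library and CD3E the highest at up to 122 counts. The plasma cell markers summed to 8253 to 8335 CPM in MM1S Veh libraries, 7271 to 7887 in MM1S TAK, 5555 to 5675 in MM1S Dex and 4719 to 4757 in MM1S combo. In MM1R they summed to 10755 to 10809 CPM with Veh, 9019 to 9025 with TAK-981, 10170 to 10584 with Dex and 9083 to 9345 with combo. Their part in the results below was not tested.

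Promoter sequence is shown for the cytosolic HSP90 genes and HSPA8 because these genes carry the motif of heat shock factors, which are known to drive chaperone genes. RefSeq promoter windows (GRCh38.p14, 250 bases before to 50 bases after a transcript start) matched 7 of the 9 genes by symbol, with 17 windows in all. FKBP4 and ST13 had no matching entry. The motif of 3 heat shock units, which is GAA, TTC and GAA with NN between neighboring units and was searched on both strands, was found in windows of 3 genes, and in 0.49% of the 35116 windows of this length over all genes. It contains both 2-unit forms, GAANNTTC (in 6.77% of windows) and TTCNNGAA (in 7.74%). The matches, with the motif in capitals and read 5′ to 3′ on the strand of the gene, are these.
HSP90AA1, first base of the motif 88 bases before the start, chr14:102087112-102087139, minus strand: agggttcTTCCGGAAGGTTCgggaggct
HSP90AB1, 165 bases before the start, chr6:44247771-44247798, plus strand: gagcaggTTCTGGAAGATTCatgggctc
HSP90AB1, 112 bases before the start, chr6:44247824-44247851, plus strand: gagattgTTCTGGAAGCTTCtggattct
HSPA8, 230 bases before the start, chr11:123062346-123062373, minus strand: cgagcttGAAAGTTCCAGAAcgctgcgg
HSPA8, 55 bases before the start, chr11:123062171-123062198, minus strand: gggccccTTCTGGAAGGTTCtaagatag
STIP1 carried only the form TTCNNGAA, with its first base 14 bases into the transcript. The windows of NR3C1, PTGES3 and CDC37 held none of these forms, and no window of the 7 genes held the E-box CACGTG (in 7.26% of all windows) or the palindrome of a glucocorticoid response element, which is GNACA and TGTNC with NNN between them (in 0.39%). These matches describe letters in a window and not bound sites.

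The authors' table places NR3C1 on chr5:142657496-142815077, minus strand, in the hg19 build. In MM1S it was measured at 283 and 277 CPM in the Veh libraries, 357 and 318 CPM with TAK-981, 257 and 239 CPM with Dex, and 286 and 278 CPM with combo. In MM1R the values were 19.9 and 17.9 CPM with Veh, 20.5 and 20.4 CPM with TAK-981, 19.4 and 16.7 CPM with Dex, and 19.3 and 20.2 CPM with combo. Every MM1S library lay above every MM1R library, and the TAK libraries were the highest group in each line. MM1R held 6.77% of the mean MM1S level with Veh, 6.06% with TAK-981, 7.27% with Dex and 7.01% with combo. Ordered by mean CPM, MM1S TAK stood apart from the next group, MM1S combo and MM1S Veh overlapped, and MM1S Dex stood below both. Among the MM1R groups only TAK lay apart from its lower neighbor. As these are bulk samples, fewer cells of a kind and less RNA per cell cannot be told apart.

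**Figure D1:**
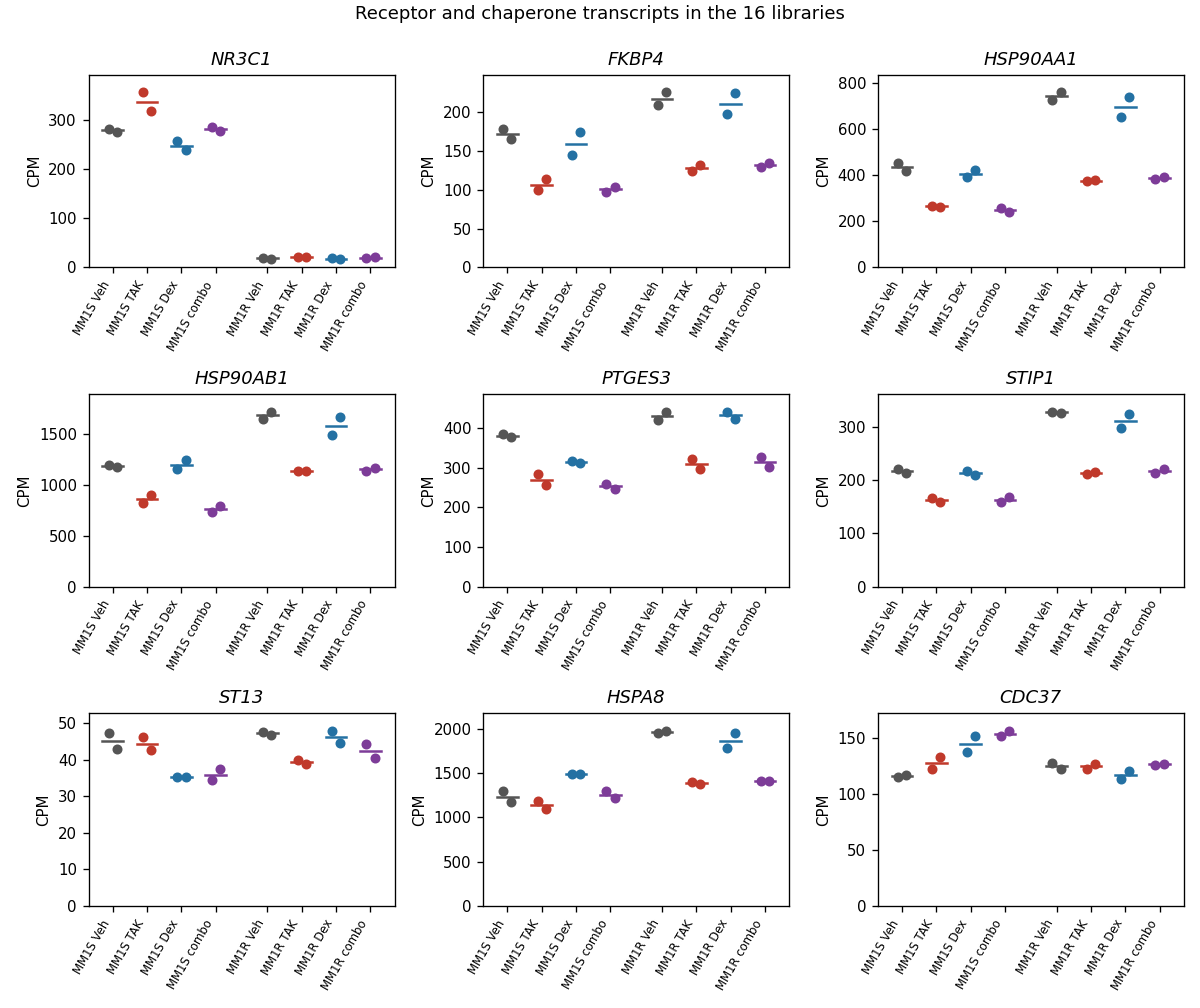
Level of each of the 9 transcripts in CPM (y axis, from 0, a separate scale per gene) in the 16 libraries by cell line and treatment (x axis), with points for libraries and a short line for the mean of each group (n = 2). NR3C1 lies between 239 and 357 CPM in MM1S and between 16.7 and 20.5 CPM in MM1R, while HSP90AA1, HSP90AB1, FKBP4, PTGES3 and STIP1 are lower with TAK-981 or combo than with Veh or Dex in each line.

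Per length, the receptor transcript in MM1S stood near the lower end of the 9 genes, and in MM1R it was the lowest. On the RPKM scale (CPM per kb of the length given in the table), the order in MM1S Veh was HSPA8 at 432 ± 31.2 (SD, n = 2) and HSP90AB1 at 409 ± 6.46, whose libraries overlapped, then PTGES3 at 118 ± 1.60. HSP90AA1 at 97.4 ± 5.18 and STIP1 at 96.1 ± 2.53 overlapped as well, and CDC37 at 69.7 ± 0.810, FKBP4 at 46.1 ± 2.54, NR3C1 at 27.2 ± 0.424 and ST13 at 14.2 ± 0.936 followed, each apart from the next. With TAK-981 in MM1S the mean of NR3C1, 32.9, was above that of FKBP4, 28.5. In MM1S Veh, NR3C1 stood at percentile 83.5 of the 14215 tested genes by RPKM, HSPA8 and HSP90AB1 both at 99.5. In MM1R Veh, HSPA8 at 689 ± 6.22 and HSP90AB1 at 581 ± 18.5 again led, HSP90AA1 at 166 ± 5.41 and STIP1 at 146 ± 0.743 stood above PTGES3 at 134 ± 4.87, and NR3C1 was last at 1.84 ± 0.137, percentile 28.1. The summed reads per kb of HSP90AA1 and HSP90AB1 were 18.7 and 18.5 times those of NR3C1 in the MM1S Veh libraries, 9.87 and 11.9 times with TAK-981, 19.4 and 22.5 times with Dex, and 11.2 and 12.1 times with combo. The libraries with TAK-981 lay below those without it. In MM1R the same ratio ran from 239 to 254 in the 4 libraries with TAK-981 and from 350.1 to 455 in the 4 without it, at NR3C1 counts of 381 or more. How reads shared with processed copies were assigned is not given in the sources used here, which could affect the levels of HSP90AB1, HSPA8 and PTGES3. Of the rows found by symbol, the copy HSP90AB4P had 76 to 177 counts against 11788 to 41691 for HSP90AB1, and ST13P4 had 0 to 3. The related gene PTGES3L had 5 to 24 counts, and no such row was found for HSPA8. Low counts in these rows do not show how shared reads were assigned.

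In the same build HSP90AA1 lies at chr14:102547075-102606086 (minus strand), HSP90AB1 at chr6:44213903-44221625 (plus), FKBP4 at chr12:2904108-2914587 (plus) and PTGES3 at chr12:57057125-57082078 (minus). STIP1 lies at chr11:63953587-63972020 (plus), HSPA8 at chr11:122928200-122933186 (minus), ST13 at chr22:41220601-41252687 (minus) and CDC37 at chr19:10501809-10514271 (minus). These hg19 positions span whole genes and are not on the build of the promoter windows.

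The first comparison asked how the resting complex differed between the resistant and the sensitive line. MM1R Veh cells had less NR3C1 and more of 6 of the 8 chaperone transcripts than MM1S Veh cells, and none of the 8 was lower. NR3C1 was at 0.0677 times its MM1S level, a log2 fold change of −3.88 (SE 0.083, edgeR quasi-likelihood test with Benjamini-Hochberg adjusted p = 1.24e-16). Over all tested genes 25.6% were called higher and 22.6% lower in MM1R, or 48.2% in either direction.

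HSP90AA1 was at 452 and 419 CPM in MM1S Veh and at 725 and 759 CPM in MM1R Veh, and both MM1R libraries lay above both MM1S libraries. This was the largest rise among the 8 chaperones, at a log2 fold change of 0.77 (SE 0.065, edgeR adjusted p = 2.97e-08). HSPA8 was at 1297 and 1171 CPM in MM1S Veh against 1956 and 1981 CPM in MM1R Veh, without overlap, and rose by 0.67 (SE 0.061, edgeR adjusted p = 6.44e-08). STIP1, at 220 and 212 CPM against 329 and 326 CPM, rose by 0.60 (SE 0.059). HSP90AB1, at 1197 and 1171 CPM against 1643 and 1719 CPM, rose by 0.51 (SE 0.064). FKBP4, at 179 and 165 CPM against 209 and 225 CPM, was higher by 0.34 (edgeR adjusted p = 0.00401), and PTGES3, at 385 and 378 CPM against 420 and 442 CPM, by 0.18 (edgeR adjusted p = 0.0294). The last pair depended on single libraries. FKBP4 had an edgeR adjusted p of 0.0571 without MM1S Veh library 2 and 0.053 without MM1R Veh library 2. PTGES3 had one of 0.0826 without MM1S Veh library 1, 0.137 without MM1S Veh library 2 and 0.206 without MM1R Veh library 2, and it was not called with upper quartile scaling (0.159) or library size alone (0.176) either. ST13, at 47.2 and 43.0 CPM against 47.6 and 46.8 CPM (log2 fold change 0.07, adjusted p = 0.501), and CDC37, at 115 and 117 CPM against 128 and 122 CPM (0.11, adjusted p = 0.183), did not pass the test.

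The next comparison asked what TAK-981 alone did to the complex. In both lines HSP90AA1, HSP90AB1, FKBP4, PTGES3 and STIP1 fell, and NR3C1 and CDC37 did not. In MM1S, 5 of the 8 chaperones were called lower and none higher, against 23.7% of all tested genes called lower and 25.2% higher (49.0% in either direction). In MM1R, 7 of the 8 were called lower, against 27.6% of all genes lower and 25.8% higher (53.4% in either direction). With upper quartile scaling 3144 genes were lower and 4438 higher in MM1R, beside 3926 and 3666 with TMM. The median log2 fold change over the 8 chaperones was −0.44 in MM1S and −0.54 in MM1R, beside 0.04 and 0.00 over all tested genes. The 9 genes together took 0.406 to 0.431% of counts in MM1S Veh and 0.323 to 0.336% in MM1S TAK libraries, and 0.542 to 0.552% in MM1R Veh and 0.365 to 0.368% in MM1R TAK libraries.

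HSP90AA1 had the largest estimated fall of the 9 genes in each line, although in MM1S that of FKBP4 was close (−0.69, SE 0.090). In MM1S it went from 452 and 419 CPM with Veh to 266 and 264 CPM with TAK-981, or 0.608 times the Veh level, a log2 fold change of −0.72 (SE 0.065, edgeR adjusted p = 4.27e-08). In MM1R it went from 725 and 759 CPM to 373 and 378 CPM, or 0.506 times the Veh level, a log2 fold change of −0.98 (SE 0.065, edgeR adjusted p = 8.63e-10). TAK libraries lay below Veh libraries in both lines, and the MM1R TAK level came down to less than that of MM1S Veh. HSP90AB1, the more abundant form, was at 1197 and 1171 CPM with Veh against 820 and 896 CPM with TAK-981 in MM1S (−0.46, SE 0.064) and at 1643 and 1719 CPM against 1137 and 1133 CPM in MM1R (−0.57, SE 0.064), and the groups did not overlap.

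FKBP4, the immunophilin of the mature receptor complex, was at 179 and 165 CPM with Veh against 99.5 and 113 CPM with TAK-981 in MM1S, and at 209 and 225 CPM against 125 and 132 CPM in MM1R. Its log2 fold change was −0.69 (SE 0.090, edgeR adjusted p = 4.41e-06) in MM1S and −0.76 (SE 0.089, edgeR adjusted p = 1.25e-06) in MM1R. PTGES3, the p23 co-chaperone, was at 284 and 257 CPM with TAK-981 in MM1S and 323 and 296 CPM in MM1R, all below the Veh libraries of the same line. It fell by 0.50 and 0.48 on the log2 scale (SE 0.064 in each line). STIP1, the bridge between HSP70 and HSP90, was at 167 and 158 CPM with TAK-981 in MM1S and 212 and 214 CPM in MM1R, again below Veh, with log2 fold changes of −0.41 and −0.62 (SE 0.059 in each).

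HSPA8, ST13 and CDC37 gave another picture in MM1S, and CDC37 did so in MM1R as well. HSPA8 was at 1297 and 1171 CPM with Veh and 1188 and 1100 CPM with TAK-981 in MM1S, with overlapping groups and a change of −0.11 on the log2 scale (edgeR adjusted p = 0.145, or 0.0456 without MM1S Veh library 2 and 0.0362 with library size alone). In MM1R it went from 1956 and 1981 CPM to 1397 and 1375 CPM, which did not overlap, and fell by 0.51 (SE 0.060, edgeR adjusted p = 1.44e-06). The difference between the lines in this response was −0.40 (SE 0.085, edgeR adjusted p = 0.0114 for the interaction), and HSPA8 was the only gene of the 9 called in that interaction, against 4.16% of all tested genes (3.19% higher and 0.978% lower). That call was lost when MM1S Veh library 2, MM1R Veh library 2 or either MM1R TAK library was left out, with an edgeR adjusted p from 0.0577 to 0.0781 and values of −0.41 to −0.33.

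ST13, the HIP co-chaperone, was at 46.1 and 42.6 CPM with TAK-981 in MM1S, inside the range of Veh (log2 fold change −0.03, adjusted p = 0.813), and at 39.9 and 38.9 CPM in MM1R, below Veh (−0.26, edgeR adjusted p = 0.00777). The MM1R call did not hold without MM1R TAK library 2 (edgeR adjusted p = 0.0583) or with upper quartile scaling (−0.18, adjusted p = 0.0589), and the difference in response between the lines did not pass the test (−0.24, adjusted p = 0.217). CDC37 was at 122 and 133 CPM with TAK-981 in MM1S (0.14, edgeR adjusted p = 0.0877, or 0.0256 without MM1S TAK library 1 and 0.0214 with upper quartile scaling) and at 122 and 127 CPM in MM1R, where the groups overlapped (0.00, adjusted p = 0.971). The interaction of HSP90AA1, −0.27, was not called either (adjusted p = 0.106).

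NR3C1 itself was higher with TAK-981 in MM1S, by 0.27 on the log2 scale or 1.21 times (SE 0.070, edgeR adjusted p = 0.00373). When the model was fitted to the 2 groups compared alone, it was 0.24 with an adjusted p of 0.0554. In MM1R, NR3C1 had a log2 fold change of 0.11 (SE 0.089, adjusted p = 0.308), and the difference between the lines was −0.16 (SE 0.11, adjusted p = 0.433), so the data do not show that the response differed between the lines.

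**Figure D2:**
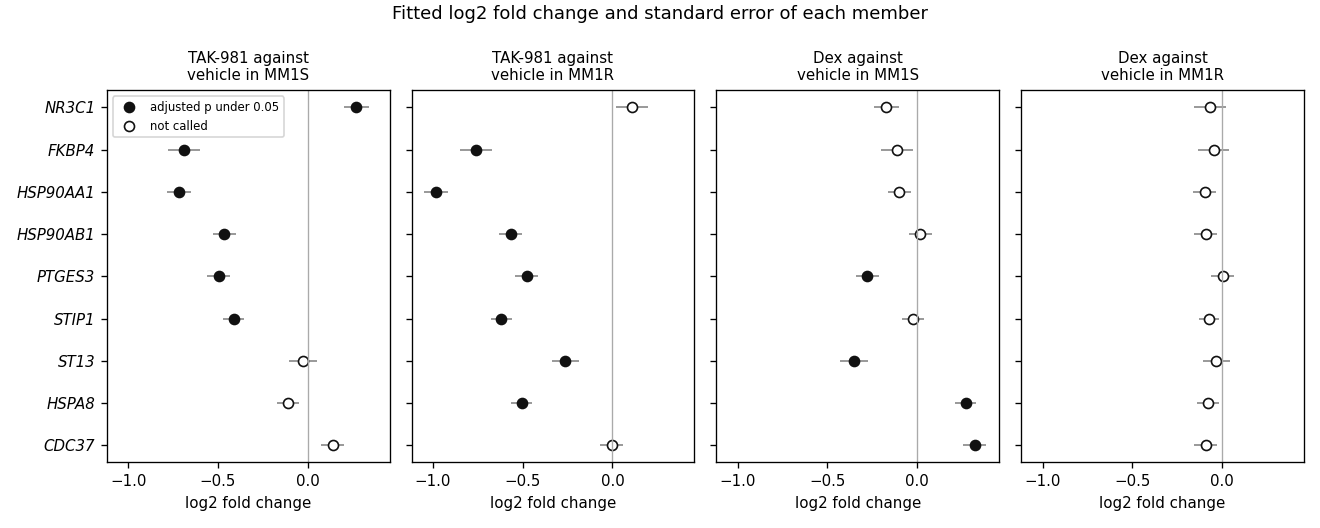
Fitted log2 fold change (x axis) of each of the 9 genes (y axis) for TAK-981 or Dex against vehicle in MM1S and MM1R, with horizontal bars for 1 SE from 16 libraries and filled points for an edgeR adjusted p under 0.05. With TAK-981, 5 chaperones in MM1S and 7 in MM1R lie to the left of 0 as filled points, while with Dex the filled points are PTGES3 and ST13 on the left and HSPA8 and CDC37 on the right in MM1S, and none in MM1R.

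Because HSP90AA1 and HSP90AB1 encode near-equivalent proteins under different control, their counts were compared within each library, where library scaling plays no part. The ratio of HSP90AA1 to HSP90AB1 counts in MM1S was 0.378 and 0.358 with Veh, 0.341 and 0.338 with Dex, 0.325 and 0.295 with TAK-981, and 0.355 and 0.302 with combo. In MM1R it was 0.441 and 0.442 with Veh, 0.437 and 0.443 with Dex, 0.328 and 0.333 with TAK-981, and 0.340 and 0.337 with combo. The 4 MM1R libraries with TAK-981 lay below the 4 without it, whereas in MM1S a combo library lay above both Dex libraries. Over both lines the mean log2 ratio was −1.62 in the 8 libraries with TAK-981 and −1.34 in the 8 without it, a difference of −0.28 (two-sided exact permutation test within line and Dex strata, p = 0.00463, where the smallest possible is 0.00154). Within MM1S alone the difference was −0.15 (exact permutation p = 0.167). Within MM1R alone it was −0.40 (exact permutation p = 0.0556, the smallest that 36 arrangements allow).

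**Figure D3:**
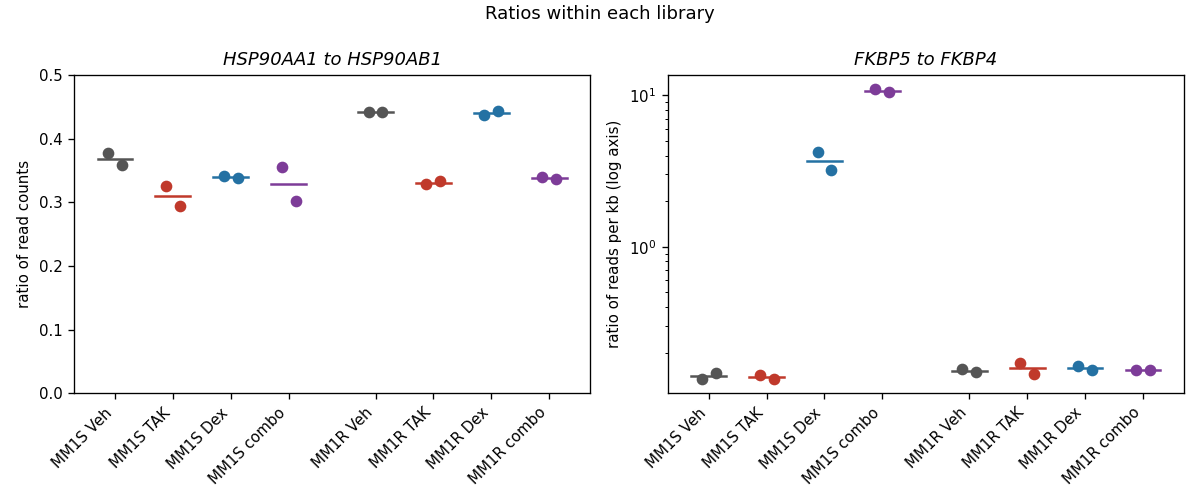
Left, ratio of HSP90AA1 to HSP90AB1 read counts (y axis from 0) in each of the 16 libraries. Right, ratio of FKBP5 to FKBP4 reads per kb on a log axis, with points for libraries and lines for group means (n = 2). The MM1R libraries with TAK-981 sit at 0.328 to 0.340 against 0.437 to 0.443 without it, and the FKBP5 to FKBP4 ratio is above 3 only in the MM1S Dex and combo libraries.

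Dex alone gave called genes among the chaperones in MM1S and none in MM1R. In MM1S 2 of the 8 chaperones were called higher and 2 lower, against 20.8 and 21.5% of all tested genes (42.3% in either direction), so the share was near the background. CDC37, the kinase co-chaperone, was at 115 and 117 CPM with Veh and 137 and 152 CPM with Dex, without overlap, and rose by 0.32 (SE 0.065, edgeR adjusted p = 0.000607). HSPA8 was at 1297 and 1171 CPM with Veh and 1490 and 1487 CPM with Dex, without overlap, and rose by 0.27 (SE 0.060, edgeR adjusted p = 0.00139). ST13 was at 47.2 and 43.0 CPM against 35.3 and 35.3 CPM with Dex, and PTGES3 at 385 and 378 CPM against 316 and 313 CPM, with the Dex libraries below in each case. They fell by 0.35 (SE 0.078, edgeR adjusted p = 0.00126) and 0.28 (SE 0.064, edgeR adjusted p = 0.00183). HSP90AA1, at 393 and 421 CPM with Dex, HSP90AB1, at 1151 and 1244 CPM, STIP1, at 217 and 209 CPM, and FKBP4, at 144 and 174 CPM, overlapped Veh, with log2 fold changes from −0.11 to 0.02. Without MM1S Dex library 2, FKBP4 was at −0.26 (edgeR adjusted p = 0.0355).

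NR3C1 in MM1S was lower in both Dex libraries than in both Veh libraries, with −0.17 (SE 0.070) on the log2 scale, which missed the threshold (edgeR adjusted p = 0.0574). It was called with library size scaling alone (adjusted p = 0.0458) and without MM1S Dex library 1 (adjusted p = 0.0379).

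In MM1R none of the 9 genes was called after Dex, and none of the 14215 tested genes was (0% in either direction, with 395 at an unadjusted edgeR p under 0.05 and 0 members among them). The log2 fold changes of the 9 ran from −0.10 to 0.01. A direct test of the difference between lines was called for the 4 chaperones that moved in MM1S, against 28.1% of all tested genes (15% higher and 13.1% lower). The difference of MM1R minus MM1S was −0.41 for CDC37 (edgeR adjusted p = 0.00245), −0.35 for HSPA8 (0.00509), 0.28 for PTGES3 (0.0248) and 0.32 for ST13 (0.0324). The PTGES3 and ST13 calls depended on single libraries, with an adjusted p of up to 0.113 and 0.158 when 1 was left out (ST13 also 0.0506 with DESeq2), whereas those of HSPA8 and CDC37 held with each library left out.

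The balance of the FKBP immunophilins differed with Dex in MM1S. FKBP5, the glucocorticoid-induced partner, averaged 68.8 ± 0.246 CPM (SD, n = 2) in MM1S Veh, 42.0 ± 2.40 with TAK-981, 1663 ± 87.0 with Dex and 3066 ± 57.9 with combo, while FKBP4 stayed between 96.9 and 179 CPM in these libraries. FKBP5 rose by 4.60 with Dex in MM1S (SE 0.072, edgeR adjusted p = 1.2e-18) and fell by 0.71 with TAK-981 in each line. Per length, FKBP5 reads were 0.134 and 0.146 times those of FKBP4 with Veh, 0.142 and 0.135 times with TAK-981, 4.19 and 3.22 times with Dex and 10.9 and 10.5 times with combo. Thus FKBP4 was the more abundant immunophilin transcript in the MM1S libraries without Dex and FKBP5 in those with it. In MM1R the ratio ran from 0.146 to 0.172 in all 8 libraries. TSC22D3 (GILZ), another glucocorticoid-induced gene, averaged 41.4 CPM with Veh and 543 CPM with Dex in MM1S (log2 fold change 3.71, SE 0.094), and 85.9 and 83.2 CPM in MM1R (−0.05, adjusted p = 1).

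The combination was compared with vehicle and with each drug alone, and these comparisons share libraries with those above. Against Veh in MM1S, 6 chaperones were called lower and CDC37 higher, beside 29.5% of all genes lower and 30.8% higher (60.3% in either direction). HSP90AA1, at 259 and 239 CPM, and FKBP4, at 96.9 and 104 CPM, were below Veh by −0.81 (SE 0.066) and −0.78 (SE 0.090) on the log2 scale. ST13, at 34.6 and 37.3 CPM, had a log2 fold change of −0.33, and CDC37, at 151 and 157 CPM, one of 0.41 (edgeR adjusted p = 2.67e-05), its highest group mean. HSPA8, at 1294 and 1224 CPM, lay inside the Veh range (0.03, adjusted p = 0.699), and so did the NR3C1 mean (0.01, adjusted p = 0.911).

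Set against Dex alone, the combo libraries give a test of TAK-981 that shares no library with TAK-981 against Veh. In MM1S 6 chaperones were called lower and none higher, beside 25.4% of all genes lower and 22.2% higher (47.6% in either direction). With upper quartile scaling this background was 2788 lower and 4176 higher, against 3606 and 3159 with TMM. HSP90AA1 (−0.71, SE 0.066), FKBP4 (−0.66, SE 0.090), HSP90AB1 (−0.65, SE 0.064), STIP1 (−0.39, SE 0.060), PTGES3 (−0.31, SE 0.065) and HSPA8 (−0.24, SE 0.060) were these 6. HSPA8 was not called in the fit to the 2 groups alone (edgeR adjusted p = 0.0585) and was at −0.15 with upper quartile scaling. NR3C1 was higher by 0.18 (edgeR adjusted p = 0.0412), a call that was lost with RLE scaling, without the filter on low counts, with DESeq2, in the fit to the 2 groups alone and without MM1S Dex library 2 or either MM1S combo library, with adjusted p of up to 0.26. In MM1R 6 chaperones were called lower and none higher, beside 25.3% of all genes lower and 23.1% higher (48.4% in either direction), from −0.84 for HSP90AA1 to −0.41 for HSPA8. FKBP4, HSP90AA1, HSP90AB1, PTGES3 and STIP1 were therefore lower in each of 4 comparisons that share no libraries, TAK-981 with and without Dex in each line. These 4 come from 1 model over all 16 libraries, with shared scaling and a shared estimate of the spread, so they are not independent tests.

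Against TAK-981 alone, the combo in MM1S had less NR3C1 (286 and 278 against 357 and 318 CPM, −0.26 on the log2 scale, SE 0.070, edgeR adjusted p = 0.00728). ST13 (−0.30, edgeR adjusted p = 0.00587) and HSP90AB1 (−0.17, edgeR adjusted p = 0.0431) were also called lower and CDC37 (0.27, edgeR adjusted p = 0.0032) higher, which is 4 of the 9 genes beside 35.1% of all genes (14.5% higher and 20.6% lower). Only the CDC37 call held in the fit to the 2 groups alone, where NR3C1 had an adjusted p of 0.101, ST13 of 0.0926 and HSP90AB1 of 0.303. NR3C1 was also lost without MM1S TAK library 1 or MM1S combo library 2 (adjusted p = 0.0595 and 0.0604), HSP90AB1 without MM1S TAK library 2 or MM1S combo library 1 (0.296 and 0.287) and with upper quartile scaling or library size alone (0.114 and 0.0882), and ST13 without MM1S combo library 1 (0.0693). In MM1R none of the 9 genes nor any tested gene was called for combo against TAK-981 alone (0%, with 214 genes at an unadjusted edgeR p under 0.05). Combo against Veh there gave 6 chaperones lower and none higher beside 26.7 and 24.8% of all genes (51.5% in either direction). The interaction of TAK-981 with Dex was called for none of the 9 genes in MM1S, beside 14.9% of all genes (5.47% higher and 9.48% lower, or 777 and 1348 genes, and 1033 and 908 with library size alone), or in MM1R, beside 0% with 400 genes at an unadjusted edgeR p under 0.05. HSP90AB1 (−0.19, unadjusted p = 0.050, adjusted p = 0.171) and PTGES3 (0.18, adjusted p = 0.186) had the smallest p-values in MM1S.

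The genes around the complex were described by lists written from general knowledge. Over all tested genes, TAK-981 was followed by 23.7% lower and 25.2% higher in MM1S and 27.6% lower and 25.8% higher in MM1R, Dex in MM1S by 21.5% lower and 20.8% higher, and in MM1R Veh 22.6% were lower and 25.6% higher than in MM1S Veh. The counts of each list stand beside these shares and are descriptions. Of 17 other HSP90 co-chaperones, TAK-981 was followed by 6 lower and 2 higher in MM1S (median log2 fold change −0.16) and by 10 lower and none higher in MM1R (−0.32). AHSA1, the activator of the HSP90 ATPase, was among the lowest at −0.66 (SE 0.076) in MM1S and −0.73 (SE 0.074) in MM1R, whereas FKBP8, an immunophilin of the mitochondrial membrane, was higher in MM1S at 0.48 (SE 0.13). In MM1R relative to MM1S with Veh, 7 of the 17 were higher and none lower, with PPP5C, the phosphatase that binds HSP90 through its TPR domain, at 0.56 (SE 0.068). The fit to those 2 groups alone called 10 higher and 2 lower. After Dex in MM1S, FKBP5 was the 1 of 17 called higher, and PPP5C (−0.32) and RPAP3 (−0.30) were the 2 called lower.

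Of 15 other HSP70 and HSP40 proteins and exchange factors, 7 were lower and 1 higher after TAK-981 in MM1S (median −0.16), and 10 were lower and none higher in MM1R (−0.36). Without MM1S Veh library 1 the MM1S count was 4 lower and none higher, and in the fit to the 2 groups alone 5 lower and none higher. HSPA4L, an HSP110-family exchange factor, fell by 1.65 (SE 0.079) in MM1S and 1.32 (SE 0.075) in MM1R, and HSPH1, of the same family, by 0.54 (SE 0.066) and 0.62 (SE 0.065). After Dex in MM1S 5 were higher and 2 lower, with HSPA1B at 0.52 (SE 0.099), DNAJB1 at 0.42 (SE 0.074) and HSPA4L at −1.67 (SE 0.079). These 7 called genes became 3 without MM1S Veh library 1 or MM1S Dex library 2 and 4 without MM1S Veh library 2. HSPA1A and HSPA1B are near-identical copies whose reads may have been split. In MM1R relative to MM1S 10 were higher and 2 lower. Of the 4 organelle paralogs, 3 were lower after TAK-981 in MM1S and 4 in MM1R, led by the mitochondrial HSPA9 (−0.57, SE 0.061, and −0.63, SE 0.060). Dex in MM1S was followed by 2 lower, HSP90B1 (−0.83, SE 0.053) and HSPA5 (−0.53, SE 0.088) of the endoplasmic reticulum, and by 1 higher (0.34). In MM1R Veh all 4 were higher than in MM1S Veh.

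**Figure D4:**
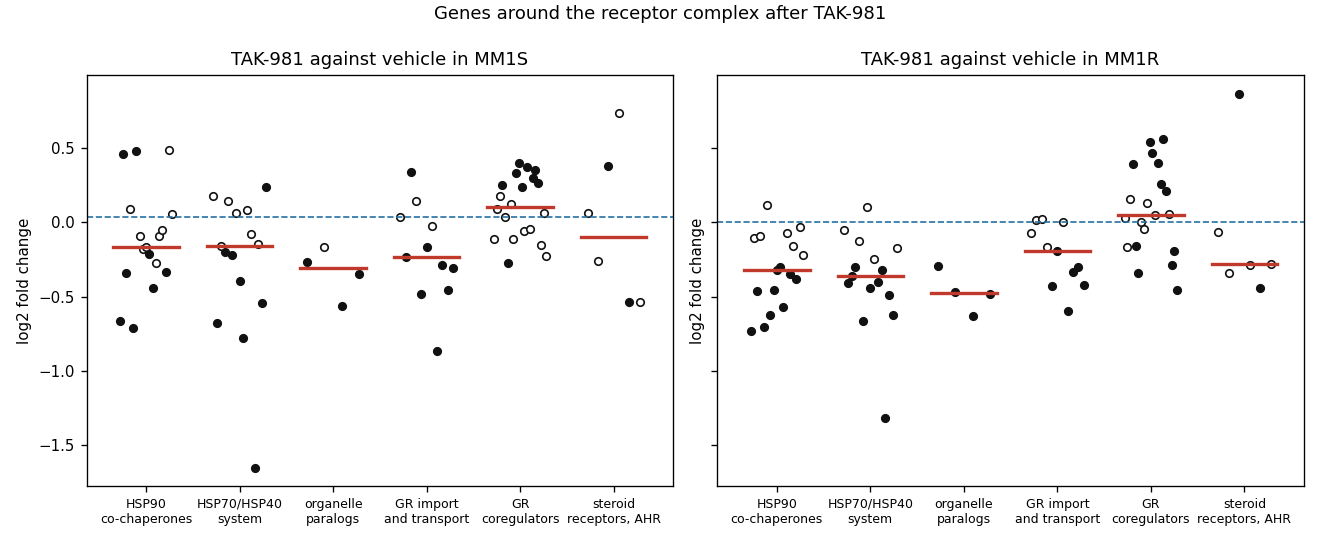
Log2 fold change (y axis) after TAK-981 against vehicle in MM1S and MM1R for each gene of 6 lists around the receptor complex (x axis), filled for an edgeR adjusted p under 0.05, with a red line for the list median and a dashed line for the median of all 14215 tested genes. The list medians of the HSP90 co-chaperones (−0.16 and −0.32), the HSP70 and HSP40 list (−0.16 and −0.36) and the organelle paralogs lie below the dashed line. Those of the import and transport factors (−0.23 and −0.19) and of the steroid receptors with AHR (−0.10 and −0.28) lie below it as well. That of the coregulators (0.11 and 0.05) lies slightly above it.

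Of 11 import and transport factors of the receptor, 7 were lower and 1 higher after TAK-981 in MM1S (5 and none in the fit to the 2 groups alone) and 6 lower and none higher in MM1R. KPNA2, an importin alpha, fell by 0.86 (SE 0.078) and 0.60 (SE 0.076), and DYNLL1, a dynein light chain, was the 1 higher gene in MM1S at 0.34 (SE 0.082). Of 20 coregulators of the receptor, 8 were higher and 1 lower in MM1S (3 and 1 in the fit to the 2 groups alone) and 7 higher and 5 lower in MM1R. NCOA2 (GRIP1), a coactivator, rose by 0.40 (SE 0.074) in MM1S and 0.54 (SE 0.074) in MM1R, and HDAC2 had log2 fold changes of −0.27 (SE 0.070) and −0.34 (SE 0.069). After Dex in MM1S 7 of the 20 were higher and none lower, led by ARID1A, a subunit of the SWI/SNF remodeler, at 0.86 (SE 0.061). In MM1R Veh relative to MM1S Veh, 8 of the 11 transport factors were higher and none lower, and 8 of the 20 coregulators were higher and 2 lower. All tested genes there were 25.6% higher and 22.6% lower. Fewer coregulators were called with any 1 of these libraries left out. Over all tested genes, 49.0% were called in either direction after TAK-981 in MM1S, 53.4% in MM1R and 42.3% after Dex in MM1S. The coregulators called in either direction were near these shares.

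Of the 6 other HSP90 clients of the receptor kind, TAK-981 was followed by 1 higher, ESR1 (0.38, SE 0.14, and 0.87, SE 0.14), and 1 lower, the mineralocorticoid receptor NR3C2 (−0.53, SE 0.10, and −0.44, SE 0.11), in each line. This is a smaller share than that of all genes called, and the ESR1 call in MM1S was lost with library size alone, without the filter on low counts, with DESeq2, in the fit to the 2 groups alone and without either MM1S Veh library or MM1S TAK library 2. In MM1R relative to MM1S with Veh, 1 of the 6 was higher and 2 were lower, and after Dex in MM1S 1 was higher and 3 were lower. NR3C2 was among the lower genes in both (−0.78, SE 0.10, and −1.07, SE 0.11). Of 10 glucocorticoid-induced genes, Dex raised 9 in MM1S (median 1.18) and none in MM1R (median −0.01), and TAK-981 was followed by 6 higher and 2 lower in MM1S and 5 higher and 1 lower in MM1R. FKBP5 stands in this list and in that of the co-chaperones.

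Over the 16 libraries, the pair of members most alike was HSP90AB1 and STIP1, with a root mean square difference of 0.0906 between their mean-centered log2 CPM values (Pearson r = 0.969). FKBP4 and HSP90AB1 followed at 0.119. Between NR3C1 and the 8 chaperones it ran from 1.89 for CDC37 to 2.33 for HSP90AA1. Outside the 9 genes and among 9637 candidates, NR3C1 was closest to TSPOAP1 (0.552), SCN3A (0.577), ZNF655 (0.633), NT5E (0.680) and CHD3 (0.721). Their Pearson r with NR3C1 ran from 0.972 for CHD3 to 0.986 for SCN3A. The root mean square difference is not scaled to a gene's own spread, and NR3C1 differed far more between the lines than the chaperones did. Its distances therefore cannot be ranked against those of the chaperones. CCT5 (0.0411) and LSM2 (0.0438) were closest to HSP90AB1, HADH (0.0590) and TCP1 (0.0634) to FKBP4, PA2G4 (0.0952) and JPT2 (0.0991) to HSP90AA1, and VMA21 (0.0509) and ERH (0.0566) to PTGES3. GNPTAB and KHSRP were closest to STIP1, NDRG3 and DENR to ST13, PRMT5 and DHX9 to HSPA8, and TUBGCP2 and ANAPC2 to CDC37. These likenesses are descriptions over libraries that share a line or a treatment.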

How the data were processed

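Ribo-Zero RNA-seq was run on total RNA, giving 16 libraries. The authors deposited 1 raw read count per gene and library, with position, strand and length. The submitters' processing notes name bcl2fastq 2.18.0.12, STAR 2.6.0, HTSeq 0.6.0, edgeR 3.28.1 and the build hg19. The annotation, the strand setting and the handling of reads that map to several places are not given in the sources used here. Without strand, overlapping genes share reads, and CDC37 overlaps MIR1181 (0 counts). The reads were not aligned again.

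The counts were fitted with edgeR 4.0.16 in R 4.3.3, with filterByExpr (minimum count 10), TMM scaling, 1 coefficient per group over all 16 libraries (8 residual degrees of freedom), a robust quasi-likelihood fit and its F test over 15 contrasts. P-values were adjusted by Benjamini-Hochberg over 14215 genes, and a gene was called at an adjusted p under 0.05. SE is that of the fitted log2 fold change. On simulated counts of 13533 genes for TAK-981 in MM1S, 100 genes were changed 1.5-fold and 100 were changed 2-fold. The model called 77% of the former and 92% of the latter, and 8 unchanged genes were also called. In the data 49% of tested genes were called for this comparison, so the Benjamini-Hochberg adjustment was less strict than in the simulation. These rates therefore do not give the share of real changes that was found. Alternatives were other scalings, no filter, a replicate block, the compared groups alone, DESeq2 1.42.0 and each library left out. Left-out fits assume that the lone library varies like the other groups.

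The 9 genes, the lists, the alternatives and the choice of genes to name were set with earlier results of these data known. From each list, up to 2 higher and 2 lower genes with the smallest adjusted p per comparison could be named, with FKBP5 and TSC22D3. Some listed genes are not reported here by name. Near neighbors were the 5 genes (NR3C1) or 2 genes (others) with the smallest root mean square difference of log2 CPM (prior count 2), among genes with a mean of at least 3. Promoter motifs were searched on both strands.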

Additional observations from a re-analysis of the deposited data

Results flagged for a closer look

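The response of 4 chaperones to a drug was called as different between the lines by an interaction test. Only the Dex calls of CDC37 and HSPA8 held with each library left out. The HSPA8 call for TAK-981 and the PTGES3 and ST13 calls for Dex depended on single libraries. For TAK-981 the difference of MM1R minus MM1S was −0.40 for HSPA8 (SE 0.085, edgeR adjusted p = 0.0114), which fell by 0.51 in MM1R and had a log2 fold change of −0.11 in MM1S. For Dex the difference was −0.41 for CDC37 (SE 0.092, edgeR adjusted p = 0.00245) and −0.35 for HSPA8 (SE 0.085, adjusted p = 0.00509), which rose in MM1S, and 0.28 for PTGES3 (SE 0.090, adjusted p = 0.0248) and 0.32 for ST13 (SE 0.11, adjusted p = 0.0324), which fell there. In MM1R the log2 fold changes after Dex were −0.09 for CDC37, −0.08 for HSPA8, 0.01 for PTGES3 and −0.03 for ST13.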

How the results depend on the processing

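Of 1302 values under the alternatives, 1175 kept their direction and call or, for counts, stayed within 1.5 times. The replicate numbers paired the libraries weakly if at all. Correlations of deviations within a line ran from −0.013 to 0.263, with 2 of 6 over 0.1 in MM1S and 0 of 6 in MM1R. A replicate block gave 3 members lower in the interaction of line with TAK-981, in place of 1. It gave 2061 genes in all in place of 592. With the block NR3C1 (adjusted p = 0.00698) was also called lower after Dex in MM1S, ST13 (0.0436) lower for combo against Veh in MM1R, and CDC37 higher after TAK-981 in MM1S (0.0297) and in MM1R Veh against MM1S Veh (0.0448). HSPA8 was called for combo against TAK-981 in MM1S (0.0265). The block gave 3579 genes in the interaction of TAK-981 with Dex in MM1S, where the fit to the compared groups alone gave 779 in place of 2125. Without the filter on low counts, 1313 genes were called in the interaction of line with TAK-981. In MM1R that setting called 30 genes for Dex against Veh, 9 for combo against TAK-981 and 19 for TAK-981 by Dex, with no member among them. The fit to the compared groups alone called 3 genes for combo against TAK-981 in MM1R. In the fit to the compared groups alone, combo against TAK-981 in MM1S called 1 member in place of 4. The HSP90AA1 to HSP90AB1 difference was −0.15 within MM1S and −0.40 within MM1R.

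With 1 library left out, members called ran from 2 to 4 for combo against TAK-981 in MM1S, from 0 to 1 for line by TAK-981, from 2 to 4 for line by Dex and from 0 to 2 for TAK-981 by Dex in MM1S. Signs changed only for values that had not been called. NR3C1 for combo against Veh in MM1S was −0.0037 with RLE and with DESeq2, −0.0069 in the compared groups alone and −0.013 to 0.031 with 1 library left out. ST13 after TAK-981 in MM1S was 0.023 with upper quartile scaling and −0.092 to 0.042 with 1 library left out. CDC37 after TAK-981 in MM1R was 0.078 with upper quartile scaling, 0.0081 in the compared groups alone and −0.040 to 0.030 with 1 left out. HSP90AB1 after Dex in MM1S was −0.011 with library size alone and −0.047 to 0.072 with 1 left out. With 1 left out, FKBP4 and STIP1 ran from −0.26 to 0.016 and −0.050 to 0.0043 after Dex in MM1S, and from −0.18 to 0.013 and −0.038 to 0.044 for combo against TAK-981. The cause was not tested. Upper quartile scaling moved the median of all genes for combo against Veh in MM1S to 0.13. With 2 libraries per group, small changes can be missed, and the simulation does not set the size below which this happens.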
